A study of Homo sapiens with 6 samples.

Results

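The reset H9 methylome consisted of the 3 bisulfite sequencing libraries whose condition was given as Reset, out of 6 libraries in the series. H9 is an established human embryonic stem cell line. The reset cells had carried DOX-inducible NANOG and KLF2 transgenes and after withdrawal of DOX were kept on mouse embryonic fibroblast feeders at 5% oxygen in t2iL+Gö, a medium with human LIF, 1 μM CHIR99021 (an inhibitor of glycogen synthase kinase-3), 1 μM PD0325901 (an inhibitor of the Erk pathway) and 5 μM Gö6983 (an inhibitor of protein kinase C). The other 3 libraries came from Conventional H9 cells in 10 ng/ml bFGF and 20% KSR, likewise on feeders at 5% oxygen. Their values, obtained in the same way, are set beside some of the reset values without a test. The authors describe their bisulfite sequencing data as coming from 3 biological replicates. The labels do not say whether the 3 reset libraries came from separate resettings, so the spread between them may not cover that between resettings.

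Methylation of the cytosine in CpG dinucleotides is copied to the new strand after replication by DNMT1, which UHRF1 guides to its sites, and is added at unmethylated sites by DNMT3A and DNMT3B. TET enzymes oxidize it, and cells of the early embryo pass through a phase of low methylation before implantation. In most somatic and cultured human cells CpG-rich promoters lack the mark whereas gene bodies and intergenic DNA carry it. In reset cells the question was where the remaining methylation lay.

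The reset libraries held 70329213 to 80199615 calls, or 2.53 to 2.88 calls per autosomal CpG after the strands of a CpG were summed. Levels are given as methylated calls in percent of all calls and were taken over windows, genes and domains because single CpGs were thinly covered. The mitochondrial genome, which was used as a check of conversion, had levels of 0.251 to 0.306%. All 3 reset libraries shared raised coverage over the first 15 Mb of chromosome 7 (1.29 to 1.30 times the autosomal mean, 0.876 to 0.884 times in Conventional) and lowered coverage over the first 40 Mb of chromosome X (0.574 to 0.584 times, 1.05 to 1.06 times in Conventional). Promoters, taken from 1000 bp before to 500 bp after the transcription start, served to check the label, since the libraries of this series hold no expression values. Among all 18673 measured promoters 12317 lay under 10%. All 6 pluripotency promoters (POU5F1, NANOG, SOX2, PRDM14, LIN28A and SALL4) lay between 0.213 and 3.68%. Their median in Conventional cells was 2.95%, low as well. Of 7 promoters of naive-state genes, 6 lay under 10% (DPPA3, DPPA5, TFCP2L1, KLF4, KLF5 and DNMT3L), and KLF17 was at 28.1%. The median of these 7 in Conventional cells was 77.9%, but they were split. KLF4, KLF5 and TFCP2L1 had 0.874, 11.1 and 22.8% there, and DPPA3, DNMT3L, KLF17 and DPPA5 had 77.9, 83.1, 96.0 and 98.1%. The promoters of the trophoblast genes GATA3, KRT7 and ELF5 lay at 1.94, 22.6 and 38.5%, those of the primitive endoderm genes GATA4, GATA6 and SOX17 at 3.48, 0.493 and 6.71%, and those of the fibroblast genes COL1A1, COL1A2 and TWIST1 at 11.9, 26.7 and 1.61%. Of these 9 promoters of other lineages 5 lay under 10%, so a low promoter does not identify the cells on its own. Conventional medians were 12.4% for the trophoblast, 0.917% for the primitive endoderm and 2.97% for the fibroblast genes.

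The following stretches of GRCh37, all written on the plus strand with each CpG in capitals, show what stood at both ends of the range. They are the 300 bases with the most calls outside untranslated regions in the bodies of CRYAA and CCDC71, of the highest gene bodies, and of HES7, of the lowest.
CRYAA, chr21:44590525-44590824: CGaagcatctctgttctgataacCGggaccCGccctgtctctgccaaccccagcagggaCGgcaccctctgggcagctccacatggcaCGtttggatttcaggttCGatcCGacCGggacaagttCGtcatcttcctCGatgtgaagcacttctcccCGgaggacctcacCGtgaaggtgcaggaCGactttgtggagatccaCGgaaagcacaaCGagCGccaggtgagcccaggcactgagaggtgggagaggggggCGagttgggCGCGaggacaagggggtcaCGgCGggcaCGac
CCDC71, chr3:49200294-49200593: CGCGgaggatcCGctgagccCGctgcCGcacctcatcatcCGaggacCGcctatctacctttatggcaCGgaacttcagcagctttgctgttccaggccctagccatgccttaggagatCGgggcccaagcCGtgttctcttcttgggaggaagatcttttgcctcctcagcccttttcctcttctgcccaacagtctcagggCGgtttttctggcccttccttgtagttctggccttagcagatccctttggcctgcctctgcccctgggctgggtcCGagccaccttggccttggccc
HES7, chr17:8025153-8025452: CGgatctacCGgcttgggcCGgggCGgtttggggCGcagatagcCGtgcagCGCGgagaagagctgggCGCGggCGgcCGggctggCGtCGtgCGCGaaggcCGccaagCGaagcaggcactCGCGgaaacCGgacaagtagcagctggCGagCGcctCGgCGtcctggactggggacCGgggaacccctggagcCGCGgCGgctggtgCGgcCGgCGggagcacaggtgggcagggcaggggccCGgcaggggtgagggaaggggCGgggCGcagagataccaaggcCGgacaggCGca

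The CRYAA stretch, which held 22 CpGs and lay partly in an exon (123 bases), was methylated at 68.2, 71.9 and 53.8% in reset replicates 1, 2 and 3 over 119 calls. It also overlaps the gene ENSG00000276076. The CCDC71 stretch lay wholly in an exon, with levels of 83.3, 73.2 and 58.3% over 24, 41 and 36 calls. In the HES7 stretch, with 37 CpGs and 203 exonic bases, 0.948% of 211 pooled calls were methylated. The HES7 stretch was at 0.687% in Conventional cells.

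Over 2258866 autosomal 1-kb windows with at least 30 pooled calls, the mean level was 28.7, 29.7 and 29.8% in the 3 reset libraries, or 29.4% ± 0.608 (SD, n = 3). The same windows averaged 87.9% ± 0.0789 (SD, n = 3) in Conventional cells. Remaining methylation formed a single broad distribution, with a median of 29.6%, quartiles of 17.0 and 41% and outer percentiles (1st and 99th) of 1.09 and 62.4%. Of these windows, 42.3% lay from 20 to 40%, 12% under 10% and 1.71% at 60% or more. In single libraries 3.83, 4.39 and 5.15% of windows with at least 30 calls in that library lay at 60% or more. Windows had a median of 77 pooled calls, and the median over windows of the SD from counting error was 4.73 points, so part of the width was counting error. Intermediate levels can come from partly methylated DNA in every cell or from a mixture of cells, and these libraries do not separate them. The mean depended on the minimum number of calls, and the cause was not tested. It was 28.5% with a minimum of 10 pooled calls and 34% with 30 calls in each library.

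**Figure D1:**
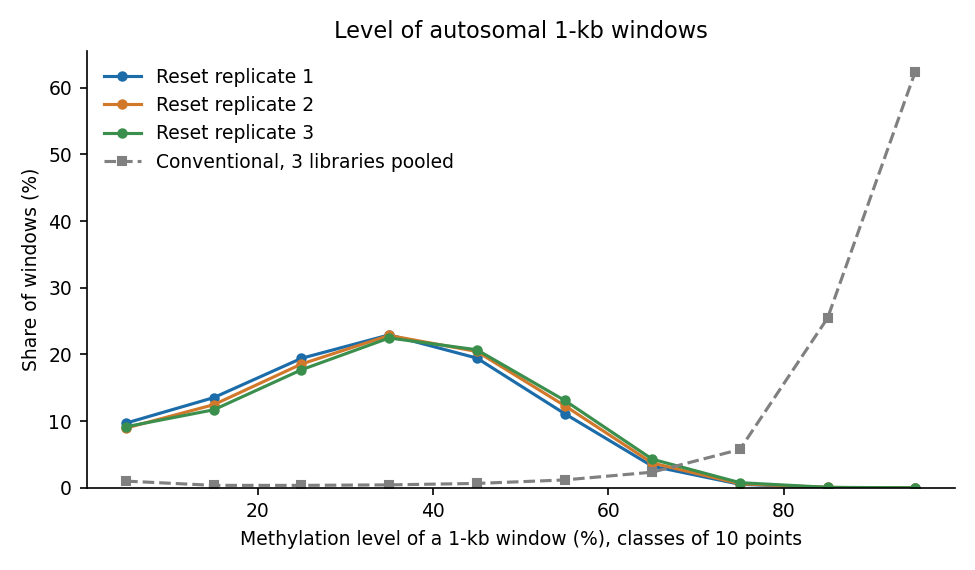
Share of autosomal 1-kb windows (vertical axis, %) in classes of 10 points of methylation level (horizontal axis, %), for windows with at least 30 calls in the given reset library (solid lines) or in the pooled Conventional libraries (dashed line). Each reset library had its highest share, 22.5 to 22.9%, between 30 and 40%, whereas 62.4% of Conventional windows lay at 90% or more.

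Highly methylated windows were rare in reset cells. Only 180 of these windows reached 80% and 11 reached 90%. Of the 11, the 3 with the most calls were chr1:120904001-120905000, with 96 calls and 90.6%, chr5:156177001-156178000 in SGCD, with 42 calls and 92.9%, and chr8:90710001-90711000 in RIPK2-DT, with 42 calls and 90.5%. The last had no calls in replicate 1. The first and the last had 0.234 and 0.107 times the calls per CpG of the median window. At the other end, 12188 windows had no methylated call. A count of 0 in 30 calls allows a level of up to 10% if calls are independent. Windows under 10% had a median of 6 CpGs and a Conventional median of 89.0%. Of them 13.0% held over 20 CpGs, while among all windows 8.21% held 21 to 40 CpGs and 1.89% held 41 or more.

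Levels rose with the number of CpGs and then fell. Windows with 1 to 5 CpGs had a mean of 22.4, 23.4 and 23.5% in the 3 libraries, windows with 11 to 20 CpGs 34.7, 35.7 and 35.9%, and windows with 41 or more CpGs 19.3, 19.6 and 19.7%. The difference between windows with 11 to 20 and with 1 to 5 CpGs was 12.3 points ± 0.0483 (SD, n = 3) and was 12.7 points in windows over 5 kb from any protein-coding start. In the densest class 52.2% of windows lay under 10% and 4.10% reached 60%, the largest shares of both kinds among the 5 classes.

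Levels also differed with the bases next to the CpG. Each CpG was classed by the bases on either side of it, with both strands folded together. Among the 10 contexts of 4 bases, GCGC was highest with 34.4, 34.1 and 34.4% in replicates 1, 2 and 3. The lowest was ACGA with 24.1, 25 and 25.1%. In Conventional cells GCGC was the lowest of the 10, at 79.6%, and ACGA was at 85.9%, but in windows with 1 to 10 CpGs GCGC was the highest there too, at 91.3%, with ACGA at 87.7%. The range in reset cells was 9.55 points ± 0.591 (SD, n = 3), and it was 12.7 points in windows with 1 to 10 CpGs. With 1 more base on each side, 136 contexts spanned 32.3 points ± 0.0627 (SD, n = 3), from 10.9 to 43.1%, a 3.97-fold ratio. This choice of 6-base contexts was made after the values of the shorter contexts had been seen.

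AACGTT was the lowest context, with 10.5, 11.0 and 11.1% over 1614100 pooled calls. AACGAC followed with 14.3, 15.1 and 15%, and AACGAT with 15.1, 15.9 and 15.9%. At the upper end TACGCA had 42.5, 43.3 and 43.5% and TGCGCA had 42.8, 42.8 and 43.2%. TACGTA, which differs from the lowest context only in its outer bases, had 40.6, 41.6 and 41.8%. The 16 contexts with AACG on either strand ranged from 10.9 to 27.4% with a median of 21.8%, and the 16 with TACG from 26.3 to 43.1% with a median of 36.1%. The lowest of the latter, AACGTA, which reads as TACGTT on the other strand, belongs to both groups. The median of all 136 contexts was 29.1%. In Conventional cells AACGTT was at 79.5% and TACGTA at 89.4%, and all contexts spanned 48.9 points, or 13.1 points in windows with 1 to 10 CpGs, where reset cells spanned 31.4 points. Across contexts the levels of reset and Conventional cells had a Spearman correlation of 0.284 over the 136 contexts of 6 bases and of -0.491 over the 10 of 4 bases (all windows, not only CpG-poor ones), which share libraries and base composition. CGCGCG and CCCGCG also stood near the lower end, with 17.5 and 18.6%, but had 39.0 and 27.5% in windows with 1 to 10 CpGs. AACGTT was also lowest there, at 9.61%, and TACGTA had 38.8%, with its rank moving from 5 to 8.

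**Figure D2:**
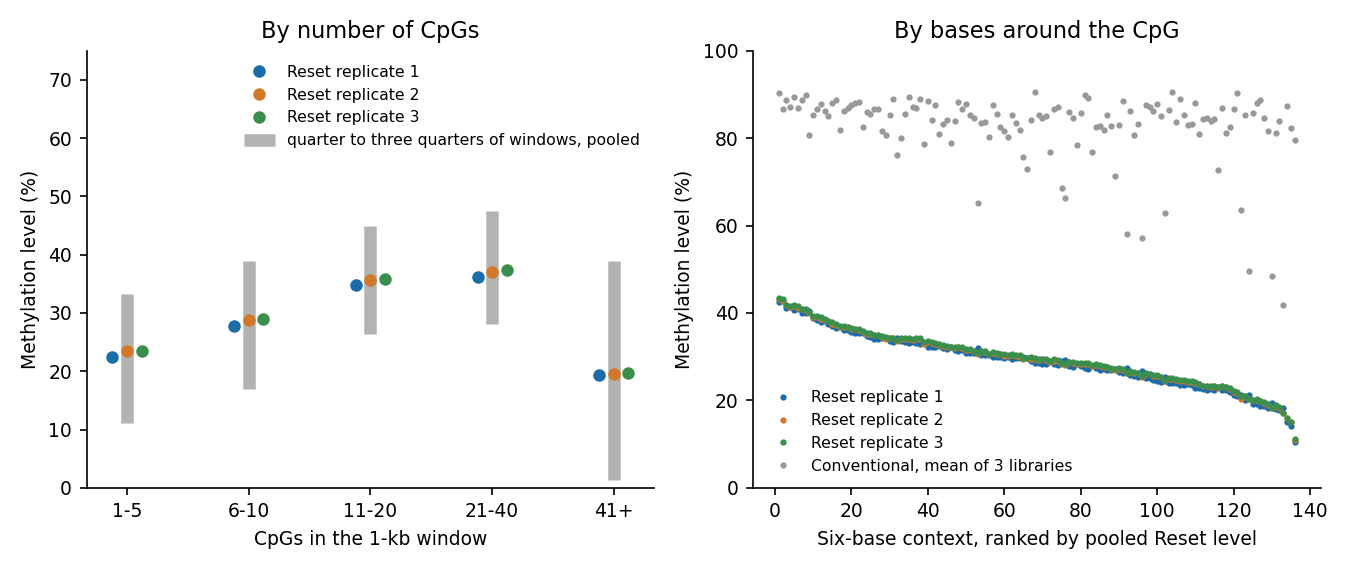
Methylation level (vertical axes, %) by the number of CpGs in a 1-kb window (left) and for 136 contexts of 6 bases ranked by their pooled reset level (right). Points are single reset libraries or, in grey on the right, the mean of the Conventional libraries, and grey bars on the left span the quartiles of windows. The reset libraries fell from 43.1 to 10.9% along the ranks, and Conventional levels lay between 41.7 and 90.6%, a wider range.

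The difference between these contexts was also present between close neighbours. AACGTT had a TACGTA within 250 bp in 3532 pairs with calls at both sites. Within these pairs AACGTT was at 10.3, 10.9 and 10.8% and TACGTA at 40.5, 41.4 and 42.0%, a mean difference of 30.6 points, with every library of TACGTA above every library of AACGTT. In Conventional cells the same sites had 81.3 and 89.1%. Pairs of AACGTT with TACGCA (4139) gave a difference of 30.4 points ± 0.890 (SD, n = 3), and pairs of AACGAC with TGCGCA (2639) one of 24.9 points. The pair shown here was taken for its number of calls among those at no more than 3 times the median, and the sites are in capitals. It lies in a long noncoding RNA gene, ENSG00000282057.
Pair, chr1:86001432-86001516, plus strand: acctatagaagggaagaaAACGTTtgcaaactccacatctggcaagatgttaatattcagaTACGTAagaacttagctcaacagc
At AACGTT 1 of 23 pooled calls was methylated (4.35%, exact 95% interval 0.110 to 21.9%) and at TACGTA 11 of 22 were (50%, 28.2 to 71.8%). Such intervals cover counting error only.

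Location relative to protein-coding genes was examined next. Within 1 kb of a transcription start the level was 8.07, 7.5 and 7.43% in the 3 libraries. Exons stood at 36.5% ± 0.485, introns at 33.6% ± 0.582 and DNA within 10 kb of a gene at 32.4% ± 0.439. DNA from 10 to 100 kb from a gene had 32% ± 0.548, but DNA over 100 kb from any gene had 24.2% ± 0.542 (SD, n = 3 each). In Conventional cells introns and DNA over 100 kb from genes had 88.5 and 88.4%. The lower level far from genes was also found among CpGs of equal density. In windows with 6 to 10 CpGs introns had 30.2, 31.4 and 31.5%, whereas DNA over 100 kb from genes had 22.6, 23.5 and 23.7%. In windows with 1 to 5 CpGs these values were 25.9% ± 0.693 and 18.9% ± 0.546.

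Gene bodies were measured from 1 kb past the start to the gene end. Of 18978 autosomal protein-coding genes, 16906 had a body of at least 2 kb with 200 pooled calls and 30 in each library. Their median level was 35.0, 35.7 and 36.1% in the 3 libraries, with pooled quartiles of 29.1 and 39.8% and outer percentiles (1st and 99th) of 8.25 and 50.2%. Genes of 30 to 100 kb had the highest median of library values, 36.9% ± 0.540, genes under 10 kb had 31.6% ± 0.486 and the 242 genes over 500 kb had 25.1% ± 0.793 (SD, n = 3 each). In Conventional cells the genes over 500 kb had a median of 89.6%, close to the 89.8% of all bodies. Within the longest genes DPYD, which degrades pyrimidines, was lowest at 8.17, 9.36 and 8.90%, and KIF26B, a kinesin family member, was highest at 43.3, 43.8 and 44%.

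The highest body was that of PLEC, which encodes the cytoskeletal linker plectin (chr8:144989321-145013765), with 66.5, 66.1 and 64.9% over 8292 calls. EPPK1, which encodes epiplakin of the same family, and FAM83H, needed for enamel formation, lie close by and had 60.1, 58.1 and 61.1% and 61.5, 65.7 and 59.8%. These 3 genes held 44 to 61.4 CpGs per kb against a median of 12.1 over all bodies. Such density was not particular to high bodies. Among the 12 lowest VGF, IER2 and HES7 held 106, 73.4 and 70.8 CpGs per kb, but MCL1, MARS2 and RPS13 11.6, 12.8 and 14.5. Among the 12 highest SCGB1D1 and ZNF551 held only 8.18 and 9.52. CRYAA, a lens crystallin and chaperone, had 67.8, 57.7 and 61.9%, and CCDC71 had 66.9, 61.2 and 59.6%. Among the 12 highest, SOD3 (extracellular superoxide dismutase, 60.3, 65.6 and 55.1%) and SSTR1 (a somatostatin receptor, 54.3, 57.8 and 71.7%) were set apart by their Conventional levels of 45.6 and 37.6%, below those in reset cells. The others among the 12 were SCGB1D1, PLAAT4, ZNF551, MYORG and LGALS12, between 59.3 and 61.0%, and had 87.2 to 96.1% in Conventional cells. In SSTR1, which had 1044 calls, replicate 3 stood above the other libraries.

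The 12 lowest bodies differed widely in their Conventional level. HES7, a repressor of the segmentation clock, had 0, 0.802 and 0.261%. If calls are independent, a count of 0 in the 306 calls of replicate 1 allows up to 0.980%. Calls from the same read need not be independent, so the limit may be higher. HES7, IER2, SOX4, FOXB1 and VGF lay at 0.421 to 1.25% in reset cells and at 0.582 to 2.60% in Conventional cells. KLF4, a transcription factor of naive pluripotency, had 0.310, 0.766 and 0.725% in reset cells and 29.8% in Conventional cells. MCL1, which protects cells from apoptosis, MARS2, the mitochondrial methionyl-tRNA synthetase, and ZFP36L2, an RNA-binding protein, had 0.756, 0.707 and 0.860% in reset cells against 24.5, 21.5 and 8.21%. RPS13, a protein of the small ribosomal subunit, had 1.83, 0.758 and 2.00% in reset cells and 95.9% in Conventional cells. The other bodies were those of ENSG00000262526 and ENSG00000267168, at 0.912 and 1.03%, against 15.2 and 11.4% in Conventional cells.

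Gene groups were taken by symbol and are described by their counts beside those of all genes. Bodies of ribosomal protein genes, which encode the protein part of the ribosome, had medians of 13.8, 13.0 and 11.9% in the 3 libraries (61 measured). Of them 46 lay under the 10th percentile of all bodies (20.3%), where 1691 of 16906 bodies lie by construction. The lowest was RPS13 and the highest RPL39L, a paralog of RPL39, at 39.4, 45.4 and 44.1%. The 54 genes under 10 kb had a median of 10.4%, and all 3488 genes of that length had 31.7%. In Conventional cells the same bodies had a median of 88.8%. Ribosomal protein genes have many near-identical processed pseudogenes, which makes their values uncertain. Their bodies had a median of 10.5 calls per CpG and all bodies 8.56, and the part of such reads in the result was not tested.

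A list of naive-state and general pluripotency factors, which includes POU5F1, SOX2, SALL4 and PRDM14, also had low bodies, with a Conventional median of 65.2%. Of 17 measured, 10 lay under the 10th percentile, with medians of 12.1, 14.4 and 15% in the 3 libraries. KLF5 had 8.59, 8.37 and 9.61%, DPPA3, a factor of oocytes and early embryos, had 5.57, 8.37 and 5.13%, and NANOG had 9.57, 8.74 and 13.0%. KLF17 was the highest at 45, 41.7 and 44.9%, and 3 of the 17 lay above the median of all bodies. The naive-state gene TFCP2L1 had 39.5%, SALL4 33.6% and PRDM14 28.7% (pooled). Conventional levels were 67.9% for KLF5, 90.2% for DPPA3 and 59.0% for NANOG. NANOG was also one of the transgenes, which were carried as cDNA. Coverage of NANOG exons was 0.497 to 0.841 times the autosomal mean in reset cells, against 0.580 times in Conventional cells, and the level was 16.3, 19 and 27.3% in its exons and 4.29, 2.65 and 0.889% in its introns. In Conventional cells they had 60.4 and 50.4%. Exons of KLF2, the other transgene, had 0.816 to 0.963 times the mean coverage, against 0.509 times, and its introns 0.705 to 0.775 times, against 0.449 times. The level of KLF2 was 14.7, 12.1 and 13.8% in its exons and 1.27, 3.68 and 3.08% in its introns, and in Conventional cells 14.6 and 1.49%. Exons of KLF4 had 0.685 to 1.02 times the mean coverage, against 0.504 times. The part of transgene copies in these values was not tested.

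Zinc finger genes were at the upper end. The 242 measured ZNF genes of chromosome 19 had medians of 40.8, 41.3 and 42.1%, and 99 of them lay over the 90th percentile of all bodies (43.1%). The range ran from ZNF552 at 8.25% to ZNF551 at 60.5%. ZNF genes of other chromosomes had medians of 38.2, 38.9 and 39.6% (245 measured, 64 over the 90th percentile), from ZNF804B at 12.3% to ZNF778 at 54.7%. Olfactory receptors, in contrast, had medians of 18.1, 19.3 and 18.7%, with 90 of 166 under the 10th percentile, and ranged from OR4K2 at 6.32% to OR8J3 at 56.7%. Their bodies held 7.57 CpGs (median) per kb. Clustered protocadherins, adhesion proteins of neurons, had a median of 34.4%, from PCDHB1 at 17.6% to PCDHB15 at 54.2%. HOX genes had 23.4% in reset cells and 13.8% in Conventional cells, and ranged from HOXA10 at 8.42%, against 11.2%, to HOXD3 at 45.4, 45.4 and 45.1%, against 8.50%. The other groups were keratins and keratin-associated proteins (28.6%, from KRT10 at 10.7% to KRT13 at 51.1%), the respiratory chain (32.5%, from COX7A2 at 10.6% to ATP5MC2 at 49.4%) and imprinted genes (37.2%, from PEG3 at 25.7% to RTL1 at 51.5%). No core histone body was long enough to be measured. Of 54 core histone promoters, 50 lay under 10%, where 12317 of all 18673 promoters did.

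**Figure D3:**
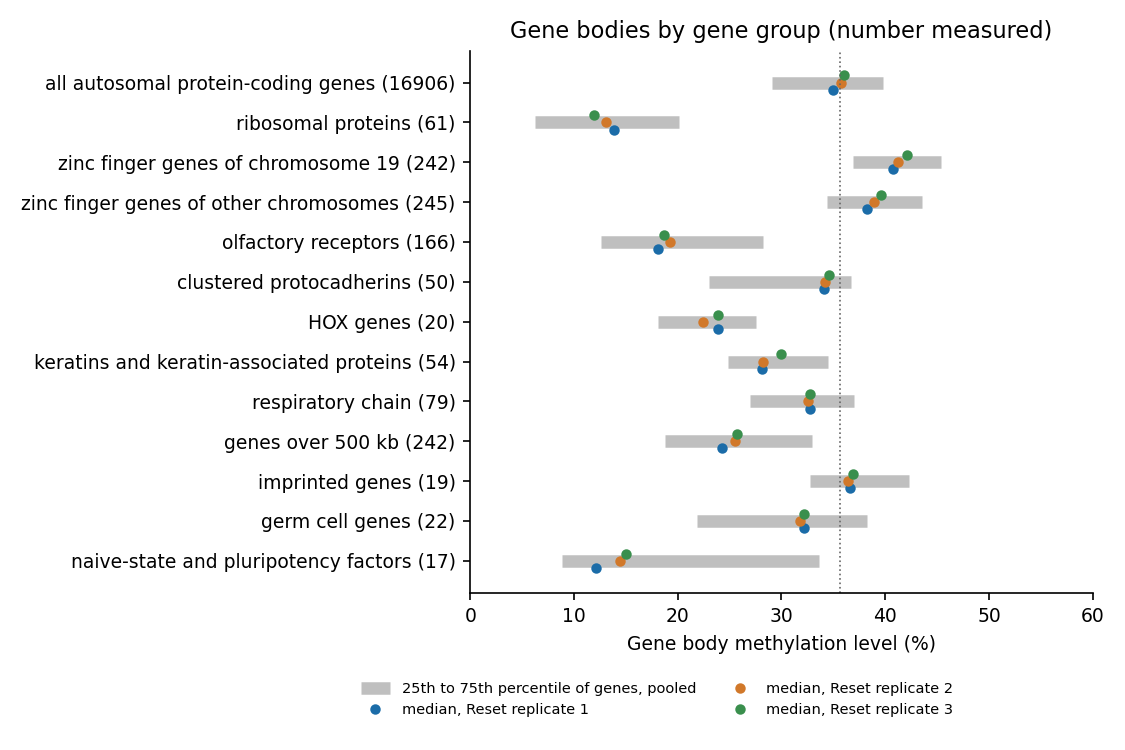
Gene body methylation level (horizontal axis, %) of gene groups with at least 15 measured bodies, whose number is in brackets. Points are the medians of the 3 reset libraries, grey bars span the quartiles of genes and the dotted line marks the pooled median of all bodies (35.7%). Ribosomal proteins and naive-state and pluripotency factors sit lowest and zinc finger genes highest, and in these groups the 3 libraries lie closer to each other than to the dotted line, with zinc finger genes of other chromosomes nearest to it.

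The 11 genes of DNA methylation itself had a median body level of 34.6%, against 35.7% for all bodies. Only DNMT3L lay under the 10th percentile of all bodies (20.3%). None lay over the 90th (43.1%), but DNMT1 and UHRF1 came close to it. DNMT1 had 43.5, 42.9 and 42.6%, UHRF1 40.7, 43.9 and 43.1%, DNMT3A 37.5, 38.7 and 39.7% and DNMT3B 37.6, 39.3 and 39.7%. TET1 had 32.9, 36.1 and 34.5%, TET2 31.8, 30.8 and 31.3% and TET3 39.4, 39.4 and 41.5%. TDG, a glycosylase that removes oxidized forms, had 33.7%, and TRIM28 and ZFP57, which protect imprints, had 32.1 and 33.3%. DNMT3L, a cofactor of the DNMT3 enzymes without activity of its own, was the lowest of the 11 at 18.5, 17.8 and 17.0%. Promoters of 10 of the 11 lay under 10%, as did 12317 of all 18673 promoters, and that of ZFP57 lay at 11.4%. In Conventional cells the promoters of ZFP57 and DNMT3L had 95.4 and 83.1%.

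Promoters of germ cell genes had higher levels than most in both groups. The median of 23 was 31.1% in reset and 91.8% in Conventional cells, and 13 lay over 30%, where the median of all 18673 promoters was 4.85% in reset and 14.6% in Conventional cells and 2879 lay over 30% in reset cells. DAZL, an RNA-binding protein of germ cells, had the highest promoter among them at 68.5, 73.8 and 66.2%. DDX4, a germ cell helicase, had 47.9, 49.1 and 52.2%, whereas DPPA2 and BRDT, named like DAZL and DDX4 after their values had been seen, had 2.12 and 2.22% against 81.9 and 93.8% in Conventional cells. Bodies of germ cell genes ranged from RBM46 at 12.7% to MOV10L1 at 42.4%. Of 23 imprinted gene promoters 3 lay over 30%, namely DIRAS3 at 57.7%, RTL1 at 51.6% and MEST at 40.9%.

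Bodies were then compared with their flanks, which were the 10 kb on each side beyond a gap of 1 kb, without DNA of any protein-coding gene or within 1 kb of a start. The question was whether genes carried more methylation than their surroundings. Over 15944 genes the body exceeded the flank by 1.30, 1.32 and 1.41 points in the 3 libraries, or 1.34 ± 0.0581 (SD, n = 3), with means of 33.6 and 32.3%. An exact sign-flip test over the 3 libraries gave a two-sided p = 0.25, the smallest it can give. Single genes varied far more, and the 5th and 95th percentiles of the difference were -14.2 and 16.6 points. By a quasi-binomial model with library as a block and Benjamini-Hochberg adjustment with limma's dispersions, the body was above the flank in 5296 genes (33.2% of those tested) and below it in 3504 (22%). Its dispersions were squeezed to a nearly common value (median 1.07). The p-values therefore rest mainly on numbers of calls and hardly on each gene's own spread between the 3 libraries. Genes that lie close together can share body or flank DNA, so the numbers of genes are not numbers of separate regions. RPL22 and RNF207, for example, had the same flank of 603 calls. In Conventional cells the mean difference was 1.61 points. The mean difference was smaller with the downstream flank only, at 0.184 points, and larger with the upstream flank only, at 2.35 points, with all flank bases kept, at 2.78 points, and with bodies from 5 kb past the start, at 3.13 points.

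**Figure D4:**
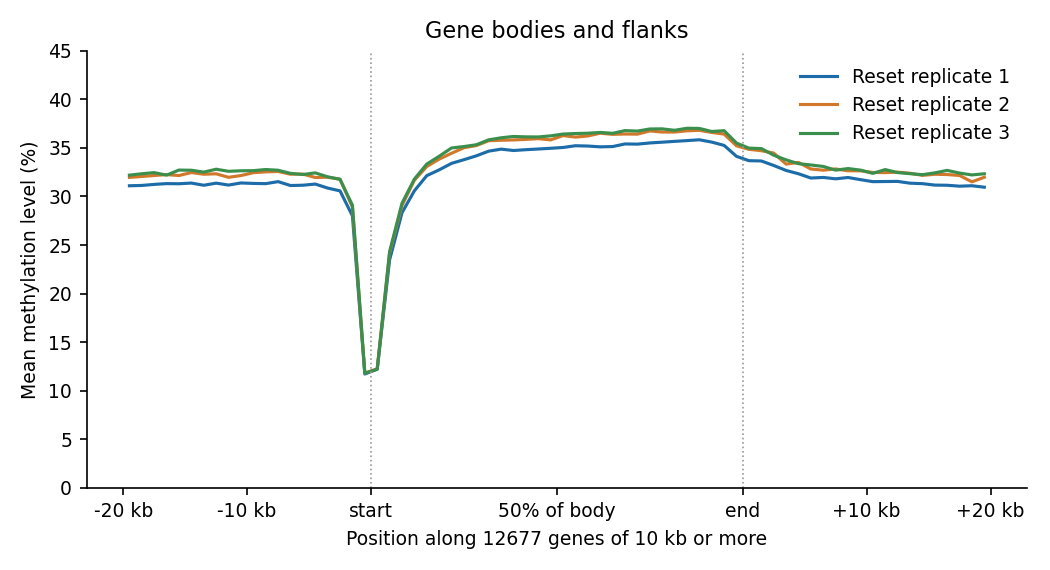
Mean methylation level (vertical axis, %) along genes of at least 10 kb (12677 in all), with bodies scaled to a common length and 20 kb on each side (horizontal axis), 1 line for each reset library. Each position averaged only the genes measured there, so body and flank do not hold the same genes. Their number was 12103 to 12206 at 88.3% of the body, and 7871 to 7937 and 6677 to 6757 at 19.5 kb upstream and downstream. The level dropped to 11.8% ± 0.0531 in the last kb before the start and reached 36.5% ± 0.626 at 88.3% of the body length (SD, n = 3), above the 31.8% at 19.5 kb on either side.

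Along the genes the level was lowest around the start and climbed through the body. At 15% of the body length it was 32.1, 33.1 and 33.3%, and 19.5 kb upstream 31.1, 32 and 32.2%. The former averaged 12158 to 12236 genes and the latter 7871 to 7937, so the positions do not hold the same genes. The first kb past the gene end still had 33.7, 34.9 and 35.0%, so the downstream side fell off gradually. Gene length went with the difference. Genes under 10 kb had bodies below flanks by -0.885 points ± 0.0494, genes of 30 to 100 kb above them by 2.31 points ± 0.0919, and genes over 500 kb differed by -0.609 points ± 0.163 (SD, n = 3 each). Among gene groups, 47 of 55 ribosomal protein genes had the body below the flank and 3 above, where 22% of all genes were below. For the naive-state and pluripotency factors 10 of 17 were below and 2 above. Of clustered protocadherins 33 of 50 were above and 2 below, and of ZNF genes of chromosome 19 118 of 220 were above and 19 below, where 33.2% of all genes were above. Neighbouring genes of a cluster can share body and flank DNA, so these counts do not stand for separate regions. TET1, TET2 and TET3 exceeded their flanks by 12, 13.8 and 13.6 points (adjusted p = 6e-20, 1.4e-17 and 9.9e-25), as did TRIM28 by 7.03 points (adjusted p = 0.023). The other 7 methylation genes did not pass the threshold. The 4 of 11 called above the flank are a share close to the 33.2% of all genes.

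The largest excess of body over flank was that of GPR17, a G protein-coupled receptor, with a body at 46.5, 48.3 and 42.4% and a flank at 2.70, 0 and 0%. Its flank had 115 calls in all after other genes were removed. DUOX1, an oxidase of thyroid and airway, had 45.9, 44.4 and 40.8% against a flank at 0.311% of 322 calls. PLEC rested on more calls, with a body of 65.8% and a flank of 25.2, 24.9 and 19.7% over 4493 calls. MUC1, DDTL and FOXI2 followed with differences of 42.4, 42.1 and 41.8 points, and the libraries of MUC1 had bodies from 29.8 to 54.6%. Their flanks had 2.89, 5.00 and 14.7% in reset cells and 1.30, 7.89 and 65.6% in Conventional cells. The flank of DDTL had only 120 calls. The largest deficit was that of EEF1B2, a translation elongation factor, with 8.96, 9.84 and 9.43% in the body and 51.8, 63.5 and 57.6% in the flank. BMP4, a growth factor that induces extraembryonic and mesodermal fates, had 7.93, 8.52 and 7.32% in the body and 45.7, 49.7 and 48.4% in the flank. PIM3, ITPKA, PROB1 and AJM1 had deficits of -43.6, -39.3, -44.2 and -39.1 points, the last with a flank of only 169 calls. These genes were chosen by their difference, which is therefore given without a test.

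At a larger scale, 26875 domains of 100 kb with at least 300 pooled calls had a mean level of 28.1% and an SD of 9.59 points. The SD was 9.68, 9.58 and 9.65 points in the single libraries, while the median SD between libraries was 0.995 points. The 5th and 95th percentiles were 11.4 and 42.1%. Levels of the same domain in different libraries had Pearson correlations of 0.985, 0.984 and 0.985, given as a description across domains. Of the 269 domains in the lowest 1% of any library, 98.1 to 99.3% lay in the lowest 5% of each of the others, and of the 269 highest 96.3 to 98.5% lay in the highest 5%. The pattern bore no linear relation to Conventional cells, in which the correlation with the pooled reset level was -0.00044 across the same domains. Neighbouring domains had a correlation of 0.759, which fell to 0.248 at 1 Mb and 0.0676 at 5 Mb.

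Domains poor in CpGs were low and others reached a plateau. Domains with under 500 CpGs had 17.3, 18.2 and 18.3% in the 3 libraries and those with 500 to 750 had 22.1, 23.1 and 23.2%. Those with 1000 to 1500 and with 2500 or more had 33.4% ± 0.337 and 34.6% ± 0.178 (SD, n = 3). Domains with less than 1% of their bases in protein-coding genes had 24.4% ± 0.540 and those with 50 to 75% had 31.1% ± 0.259. Domains in the last 2 Mb of a chromosome had 33.0% ± 0.265, and those over 20 Mb from an end 27.1% ± 0.448 (SD, n = 3 each). Between chromosomes the mean of domains ran from 25.4, 26.2 and 26.3% on chromosome 4 to 33.0, 33.6 and 33.7% on chromosome 22. Chromosomes 17 and 19 had 32.5 and 31.4%. Conventional cells had 87.4% on chromosome 4, 83.1% on chromosome 22 and 78.5% on chromosome 19.

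**Figure D5:**
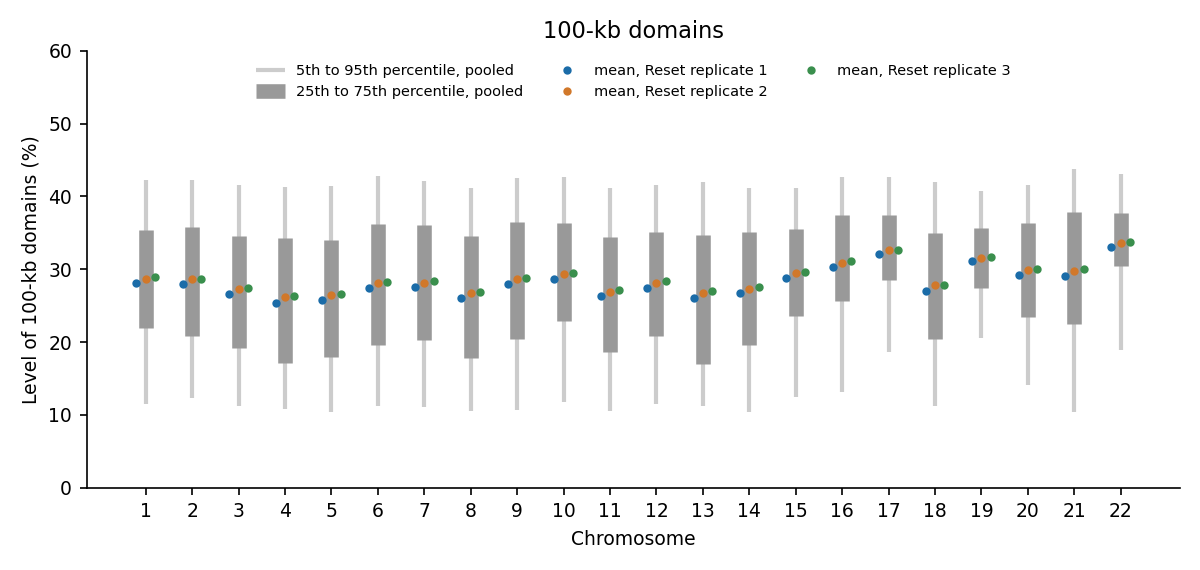
Level of 100-kb domains (vertical axis, %) on each autosome (horizontal axis), with points for the mean in each reset library and bars for the pooled percentiles. Chromosome 22 was highest at 33.4% ± 0.371 and chromosome 4 lowest at 26.0% ± 0.483 (SD, n = 3), and within every chromosome the 5th to 95th percentiles covered more than the difference between chromosomes.

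The highest domain was chr7:1900001-2000000, in MAD1L1 (a spindle checkpoint protein) and ENSG00000286192, with 52.6, 50.6 and 53.2%. It lies in the part of chromosome 7 with raised coverage. With 3352 CpGs it had 1.02 times the calls per CpG of the median domain. The domains on chromosomes 17 and 10 given next, with 3114 and 3577 CpGs, had 0.859 and 0.767 times. The domain chr17:78800001-78900000, inside RPTOR, which encodes the mTORC1 subunit raptor, had 51.3, 53.3 and 50.5%. The domains chr12:124600001-124700000, without a protein-coding gene, and chr10:134500001-134600000, with INPP5A and NKX6-2, had 51.4% ± 0.229 and 51.2% ± 0.222 (SD, n = 3). The fifth, chr5:69700001-69800000, had 49.3, 45.8 and 58.3% on 643 calls and 0.0551 times the median coverage. None of the 5 lowest domains, counted after neighbours were merged, held a protein-coding gene. They were chr2:91500001-91600000, chr16:46300001-46500000, chr7:61700001-61800000, chr2:90300001-90400000 and chr10:42300001-42400000, with mean levels of 1.76, 2.82, 2.96, 3.69 and 3.76%. In Conventional cells they had 76.6 to 84.8%. The first of them rested on 623 calls at 195 CpGs, or 0.370 times the median calls per CpG. The domains on chromosomes 16, 10 and 7 had 7.75, 10.7 and 2.03 times the median calls per CpG, and the part of reads from repeated copies was not tested. Of the 14 domains with over 3 times the median coverage, 6 lay under 10%, where 727 of all 26875 domains did, and the SD of all domains was 9.58 points without domains of extreme coverage.

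The libraries themselves were compared last. In 2009694 windows with at least 10 calls in each library, the observed SD between the 3 libraries was 9.69 points and the counting SD 8.56 points, a ratio of 1.13. With at least 30 calls in each library, the values were 8.06 and 6.53 points, a ratio of 1.24. The ratio rose with the number of CpGs, from 1.05 in windows with 1 to 5 CpGs to 1.63 in those with 41 or more, while the observed SD fell from 10.5 to 6.17 points and the counting SD from 10.0 to 3.79 points. In 100-kb domains the ratio was 1.36. The counting SD treats calls as independent, and a read can hold more calls where CpGs are dense. The part of such calls in the ratios was not tested. Replicate 1 was lowest in 53.7% of domains, and the window mean of replicate 3 was above that of replicate 1 by 1.09 to 1.18 points in classes of 1 to 20 CpGs but by 0.330 points in windows with 41 or more. The likeness of windows fell with distance, from a correlation of 0.641 for windows next to each other to 0.426 at 10 kb, 0.322 at 100 kb and 0.111 at 1000 kb, across windows of the same libraries.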

How the data were processed

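Whole-genome bisulfite sequencing of H9 cells gave 6 libraries, of which the 3 Reset libraries were described and the 3 Conventional libraries set beside them. Per the labels, the library was amplified with 11 PCR cycles. The authors trimmed reads with Trim Galore and aligned them with Bismark (version 0.9.0 in the submitters' processing notes) and Bowtie2 to GRCh37. They deposited, for each CpG cytosine and library, 2 counts (methylated calls and unmethylated calls, not normalized). The deposited percent follows from these counts and was checked against them. Removal of duplicate reads is not given in the sources used here, so the stated counting errors may be too small. Counting errors and limits also treat calls as independent, which calls of neighbouring CpGs on the same read need not be.

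Positions were counted from 0 in the tables (99.8% then lay at a CpG of GRCh37) and are printed from 1. The strands of a CpG were summed. Genes were the canonical transcripts of GENCODE release 44 mapped to GRCh37. Sequences were read from GRCh37. The quasi-binomial model (gene body against flank, library as block, adjusted p threshold 0.05) used dispersions squeezed with limma 3.58.1 and kept at 1 or more, in Python 3.11.15. It required 100 pooled calls and 10 per library in body and in flank. The model was tested on simulated data. With added spread between libraries, set alike for all genes, it recovered 32% of changed genes at an odds ratio of 1.5 and 97% at 3. With counting error only it recovered 79 and 100%. False calls made up 3.01 and 4.79% of all calls in these 2 settings. Groups followed the labels, the libraries were replicates and genes were not. Named genes were the 12 highest and 12 lowest bodies, the 6 largest rises and 6 largest falls against the flank, the extremes of each gene group, all methylation enzymes and cell type markers, and the 5 highest and 5 lowest domains, unless said otherwise. The members, gene groups and tests were chosen with earlier results of these data known. Alternatives were other call minimums, coverage limits, flanks, domain sizes and leaving out each library. Repeats were not analysed, since no annotation of them was used here.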

Additional observations from a re-analysis of the deposited data

How the results depend on the processing

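No paired analysis was possible because no test compared Reset with Conventional libraries, and the replicate numbers that the groups share enter no comparison between groups. The comparison of body and flank lies within each library, which was its block. Of 94 alternatives over 12 results, 28 were classed as moved from the main value and none as reversed. Levels, shares, ranges, the difference between classes of CpG number and the SD of domains moved by the SD between libraries or more. Numbers of genes moved by a set ratio. The mean difference between body and flank was judged by its sign only, so its values from 0.184 to 3.13 points add nothing to the 28. A reversal needed a change of sign. Only the difference between body and flank and that between classes of CpG number could show one. The remaining results are levels, shares, ranges, counts, an SD and a ratio, which cannot be negative, so the absence of a reversal says nothing about them. The mean difference between body and flank, 1.34 points, ranged from 0.184 points with the downstream flank only to 3.13 points with bodies from 5 kb past the start, was 2.78 points with all flank bases kept and was 1.31 to 1.37 points without 1 library, and its sign-flip test cannot pass the threshold under any of them. The alternatives for 6-base contexts, for chromosome 7 and for domains of extreme coverage were chosen after seeing the data. The cause of a change was not tested unless the setting itself names it.

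The mean window level was 28.5% with 10 pooled calls, 31.8% with 60, 34% with 30 in each library and 30.3% with calls pooled over windows. Windows under 10% made up 14.1, 8.63 and 8.57% under those 3 minimums and 12.3 to 13.1% without 1 library. Windows at 60% or more made up 2.22 to 2.55% without 1 library, where the minimum fell to 20 calls and counting error grew. The difference between windows with 11 to 20 and 1 to 5 CpGs was 13.0 points with 10 pooled calls and 12.7 over 5 kb from a start. The range of 4-base contexts was 12.7 points in windows with 1 to 10 CpGs and 13.6 over 5 kb from a start, that of 6-base contexts 31.4 and 34.4 points, and 32.1 to 32.3 without 1 library. Genes with the body above the flank numbered 3418 with the downstream flank only and 2543 in windows with 1 to 10 CpGs, and those below 1766 in such windows and 2183 with bodies from 5 kb past the start. limma on logit differences called 4603 above and 2983 below. The median body level was 31.9% from the start itself and 37.7% from 5 kb past it. The SD of domains was 10.3 points at 50 kb, 7.19 at 1 Mb and 10.3 in windows with 1 to 10 CpGs.

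Depth was a limit for single CpGs, which had on average 2.53 to 2.88 calls per library. The minimum of 30 pooled calls kept 84.8% of autosomal windows with a CpG.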
